A study of Mus musculus with 8 samples.

Results

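The genes described here are the Wnt ligands, their receptors and the core of the pathway downstream, measured in mouse embryonic stem cells. They were chosen by symbol: Wnt, Fzd, Sfrp, Dkk, Dvl and Axin genes, with Lef1, Tcf7, Tcf7l1, Tcf7l2, Ctnnb1, Lrp5, Lrp6, Nkd1 and Porcn. Of 12393 genes tested, 49 were members, read by 76 probe sets, and 19 of them had more than 1 probe set. Each gene is represented by its brightest probe set over the 8 arrays. No probe set with a single symbol was assigned to Tcf7, which was not analysed here.

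The cells were of the J1 line, an established mouse embryonic stem cell line, for which the labels state growth with serum and leukemia inhibitory factor for all samples, profiled on Affymetrix microarrays. The 4 groups had 2 arrays each: cells with a control hairpin (shControl), cells with Fbxl19 knockdown by shRNA1, cells with Fbxl19 knockdown by shRNA2, and cells on day 4 of differentiation. Fbxl19 is an F-box protein whose CXXC finger binds unmethylated CpG DNA, and the series asked how expression changes when it is reduced. The labels give neither the way of differentiation, nor whether the day 4 cells carried a hairpin, nor whether replicates were separate cultures, and p-values therefore cover only the array-to-array spread, which may be technical.

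Wnt proteins are secreted lipid-modified ligands that bind Frizzled receptors together with the co-receptors Lrp5 and Lrp6. Binding blocks the Axin-based complex that destroys beta-catenin, the product of Ctnnb1, which then acts with Tcf and Lef factors on target genes. In embryonic stem cells the pathway is known to help self-renewal by relieving repression by Tcf7l1, and at the onset of gastrulation it is known to drive formation of the primitive streak.

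Several promoters of these genes are rich in CpG, the dinucleotide that CXXC domains bind, and RefSeq windows (build GRCm38.p6) of 250 bases before to 50 bases after a start were held for 33 of the 49 members. Of their 41 windows, 29 (70.7%) had an observed over expected CpG ratio above 0.6, against 58.4% of 12566 windows of all genes tested and 35.8% of all 32851 windows. The sequences below, printed 5′ to 3′ on the gene's strand, are the 250 bases before the start of 4 genes that were called on day 4: Fzd5, which fell, and Fzd7, Wnt3 and Wnt6, which rose. Capitals mark each CpG. Binding of Fbxl19 was not measured on these arrays.
Fzd5, chr1:64737751-64738000, minus strand: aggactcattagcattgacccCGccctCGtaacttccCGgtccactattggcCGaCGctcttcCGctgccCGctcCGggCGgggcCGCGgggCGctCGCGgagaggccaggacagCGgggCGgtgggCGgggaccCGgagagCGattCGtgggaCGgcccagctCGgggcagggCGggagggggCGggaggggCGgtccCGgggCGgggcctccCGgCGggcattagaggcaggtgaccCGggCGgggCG
Fzd7, chr1:59481897-59482146, plus strand: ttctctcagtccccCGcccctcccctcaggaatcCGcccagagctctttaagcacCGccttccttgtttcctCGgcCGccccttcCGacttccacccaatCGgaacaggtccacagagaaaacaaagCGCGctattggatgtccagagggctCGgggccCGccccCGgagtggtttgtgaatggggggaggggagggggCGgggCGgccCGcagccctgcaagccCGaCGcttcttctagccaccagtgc
Wnt3, chr11:103773925-103774174, plus strand: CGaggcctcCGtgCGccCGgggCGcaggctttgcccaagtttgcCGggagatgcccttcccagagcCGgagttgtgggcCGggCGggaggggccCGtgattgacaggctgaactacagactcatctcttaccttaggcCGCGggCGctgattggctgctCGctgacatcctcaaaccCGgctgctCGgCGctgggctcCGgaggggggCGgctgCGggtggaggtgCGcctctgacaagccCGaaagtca
Wnt6, chr1:74771642-74771891, plus strand: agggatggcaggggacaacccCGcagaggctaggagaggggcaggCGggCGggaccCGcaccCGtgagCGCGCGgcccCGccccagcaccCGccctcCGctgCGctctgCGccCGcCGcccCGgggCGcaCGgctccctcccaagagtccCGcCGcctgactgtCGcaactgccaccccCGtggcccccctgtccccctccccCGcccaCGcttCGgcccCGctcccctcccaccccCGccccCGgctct

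The printed stretches held 32 CpG for Fzd5, 17 for Fzd7, 22 for Wnt3 and 28 for Wnt6. The letters CTTTGAT and CTTTGAA, which Tcf and Lef factors are known to bind, were also searched on both strands. They occurred in 3 of the 41 member windows (7.32%), those of Dkk1, Wnt11 and Wnt5b, against 6.61% of windows of all genes tested and 8.65% of all windows. None of the 4 printed genes held them in its window.

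Fbxl19 had no annotated probe set, and the knockdown itself could not be read from these arrays. Levels are log2 values and differences are log2 fold changes with their moderated standard error (SE). Called genes had a limma p below 0.05 after Benjamini-Hochberg adjustment over all genes tested. Arrays of a group correlated with r of 0.989 to 0.997 across probe sets. The SD of the difference between partners over the 49 members was 0.45 on day 4, 0.30 in shControl, 0.20 with shRNA2 and 0.18 with shRNA1. Replicate 2 of shControl had a lower quartile of 3.79 and a median of 5.81, respectively below and above all the other arrays. Actin control probe sets give a sign of RNA quality, and their 3′ level exceeded their 5′ level by 0.65 to 0.76 on 6 arrays but by 0.54 and 0.60 on the controls. Mean levels of 10 stem cell markers were 11.44 to 11.58 on the 6 undifferentiated arrays and 10.27 and 9.65 on day 4, where 7 of 10 were called lower. Among all genes, 16.4% were called on day 4, 7.67% higher and 8.73% lower. The mean of 10 markers of fibroblasts or feeder cells stayed between 3.93 and 4.06 on every array, with 0 of 10 called. Single markers moved in both directions on day 4, among them Col1a2 by 0.90 (limma adjusted p = 0.0522) and Thy1 by -0.98 (adjusted p = 0.0706). Of the 8 trophoblast markers, 4 rose and 1 fell on day 4 (62.5% called). Their mean was 6.45 and 5.94 there against 5.05 and 4.998 in shControl. The 4 hairpin arrays had trophoblast means of 5.26 to 5.47, above both controls, with 0 of 8 called and the largest change in Krt7 (1.30 with both hairpins averaged, adjusted p = 0.116). Of 8 neural markers Zic1 rose (0.71) and Tubb3 fell (by 1.13) on day 4 (25% called). Endoderm markers had 0 of 8 called, and of 7 primitive streak and mesoderm markers 2 rose (28.6%), Eomes and Evx1. The part of RNA quality and of these other cell types in the results was not tested. In such bulk samples, fewer cells of a type and less RNA per cell cannot be told apart.

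On day 4 of differentiation the Frizzled receptor genes changed in both directions: Fzd5 fell 6.47-fold while Fzd2, Fzd6, Fzd7 and Fzd8 rose 2.40-fold to 5.90-fold. The secreted antagonists moved in opposite directions, with Sfrp1 lower and Sfrp2 higher. Of the ligands, Wnt4, Wnt3 and Wnt6 rose, and of the nuclear factors Tcf7l2 fell. In all, 8 members rose and 4 fell, 24.5% of the 49, where 16.4% of all genes were called. By direction the background was 7.67% higher and 8.73% lower. The median change over the 49 members was 0.18, against -0.001 over all genes. Above 0 lay 38 of the 49 members and 6192 of the 12393 genes.

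**Figure D1:**
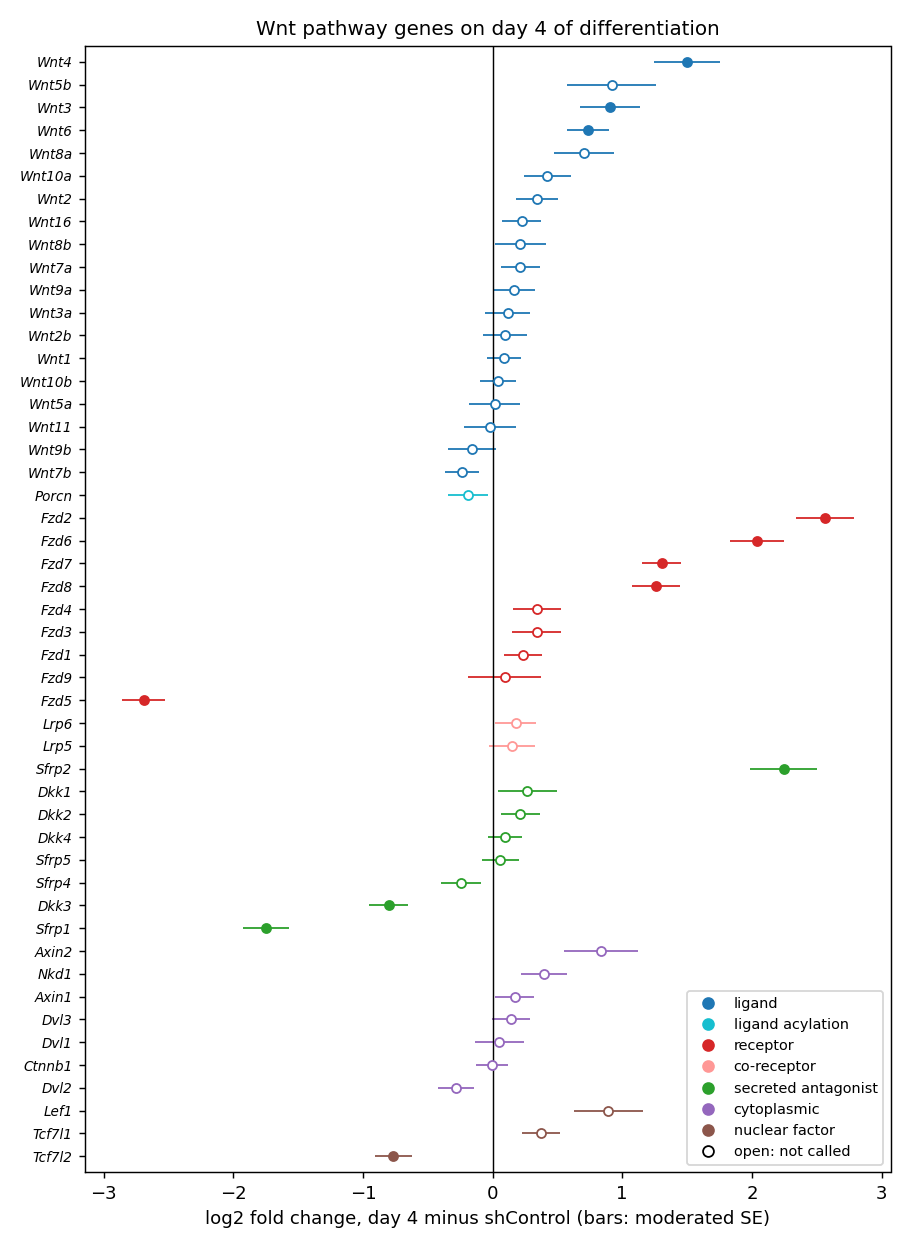
Log2 fold change of the 49 genes on day 4 against shControl, grouped by role, with bars for the moderated SE (2 arrays against 2). Filled points passed the adjusted p of 0.05; Fzd5 lies farthest to the left at -2.69 and Fzd2 farthest to the right at 2.56.

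The ligand genes, 19 in number, encode the secreted Wnt proteins, and 3 of them rose on day 4 while 0 fell. That is 15.8% of the ligands, close to the 16.4% of all genes. Wnt4, a ligand known for roles in kidney and gonad formation, had levels of 5.23 and 4.83 in shControl and 6.95 and 6.12 on day 4. The 4 hairpin arrays lay at 5.18 to 5.44, so both day 4 arrays stood above all undifferentiated arrays. The rise was 1.502 ± 0.26 (SE; limma adjusted p = 0.00417).

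Wnt3, the ligand that the mouse embryo needs to form the primitive streak, had levels of 2.69 and 2.66 in shControl and 3.17 and 3.99 on day 4. Both day 4 arrays lay above the 6 undifferentiated ones, whose highest level was 2.85. The change was 0.91 ± 0.23 (adjusted p = 0.0282). Its shControl and day 4 means both lay below 3.79, the lowest lower quartile of any array, where no measure of background is given. Its probe set carries the suffix that Affymetrix gives to probes that may also read other transcripts.

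Wnt6 had levels of 5.33 and 5.08 in shControl and 6.13 and 5.76 on day 4. The shRNA1 arrays lay equally high, at 6.12 and 6.10, so day 4 did not stand apart from the undifferentiated arrays for this gene. The change against shControl was 0.74 ± 0.16 (adjusted p = 0.0149), and against the mean of the 3 undifferentiated groups 0.34 (adjusted p = 0.104).

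The other 16 ligands were not called, with changes from -0.24 for Wnt7b to 0.92 for Wnt5b. Wnt5b had levels of 3.37 and 3.51 in shControl and 3.69 and 5.03 on day 4, so its change of 0.92 came mainly from day 4 replicate 2 (adjusted p = 0.113). Wnt8a, another ligand expressed at the primitive streak, had 3.06 and 2.80 in shControl and 3.26 and 4.01 on day 4 (change 0.71, adjusted p = 0.0728). Wnt3a, often used as a recombinant protein to keep stem cells undifferentiated, had a change of 0.12 (adjusted p = 0.722), and Wnt5a, a ligand of the non-canonical branch, had 0.02. For 13 members, 9 of them ligands, at least 1 group mean lay below 3.79, and for 8 members all 4 did.

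Without shControl replicate 2, Wnt3, Wnt4 and Wnt6 were no longer called (adjusted p = 0.149, 0.0602 and 0.0998). Wnt3 was also not called without shControl replicate 1 (adjusted p = 0.0990) and had 0.50 without day 4 replicate 2, and Wnt6 was not called without day 4 replicate 1 (adjusted p = 0.0519).

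The Frizzled genes encode the membrane receptors of Wnt, and 5 of the 9 measured (55.6%) were called on day 4, against 16.4% of all genes. Of these, 4 were higher, where 7.67% of all genes were, and 1 lower, where 8.73% were. Fzd5, the Frizzled gene that fell, had levels of 9.61 and 9.43 in shControl, 9.49 and 9.09 with shRNA1, and 9.61 and 9.40 with shRNA2. On day 4 both arrays were at 6.82 and 6.83, far below every undifferentiated array. The change was -2.69 ± 0.17 (adjusted p = 2.04e-05), with 1 probe set for the gene.

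Fzd2 had levels of 5.86 and 6.05 in shControl, 5.75 to 6.04 on the hairpin arrays, and 8.13 and 8.91 on day 4. It rose by 2.56 ± 0.23 (adjusted p = 0.000115), and both its other probe sets rose as well, by 2.22 and 1.86. Fzd6, a receptor best known from planar polarity of hair and skin, had 6.04 and 5.75 in shControl and 8.06 and 7.81 on day 4, above the 5.82 to 6.37 of the hairpin arrays. It rose by 2.04 ± 0.21 (adjusted p = 0.000253). Its other probe set, with a mean level of 3.28, had 0.31 and was not called.

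Fzd7, which is abundant in pluripotent cells, had 9.51 and 9.53 in shControl, 9.89 and 9.92 with shRNA1, 9.21 and 9.36 with shRNA2, and 10.995 and 10.65 on day 4. The day 4 arrays were the highest of the 8, and the change against shControl was 1.30 ± 0.15 (adjusted p = 0.000513). The other Fzd7 probe set, at a mean of 4.54, had 0.08. Fzd8 had 4.64 and 5.13 in shControl, 4.70 to 5.19 on the hairpin arrays, and 6.14 and 6.16 on day 4, which did not overlap. It rose by 1.26 ± 0.19 (adjusted p = 0.00188).

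**Figure D2:**
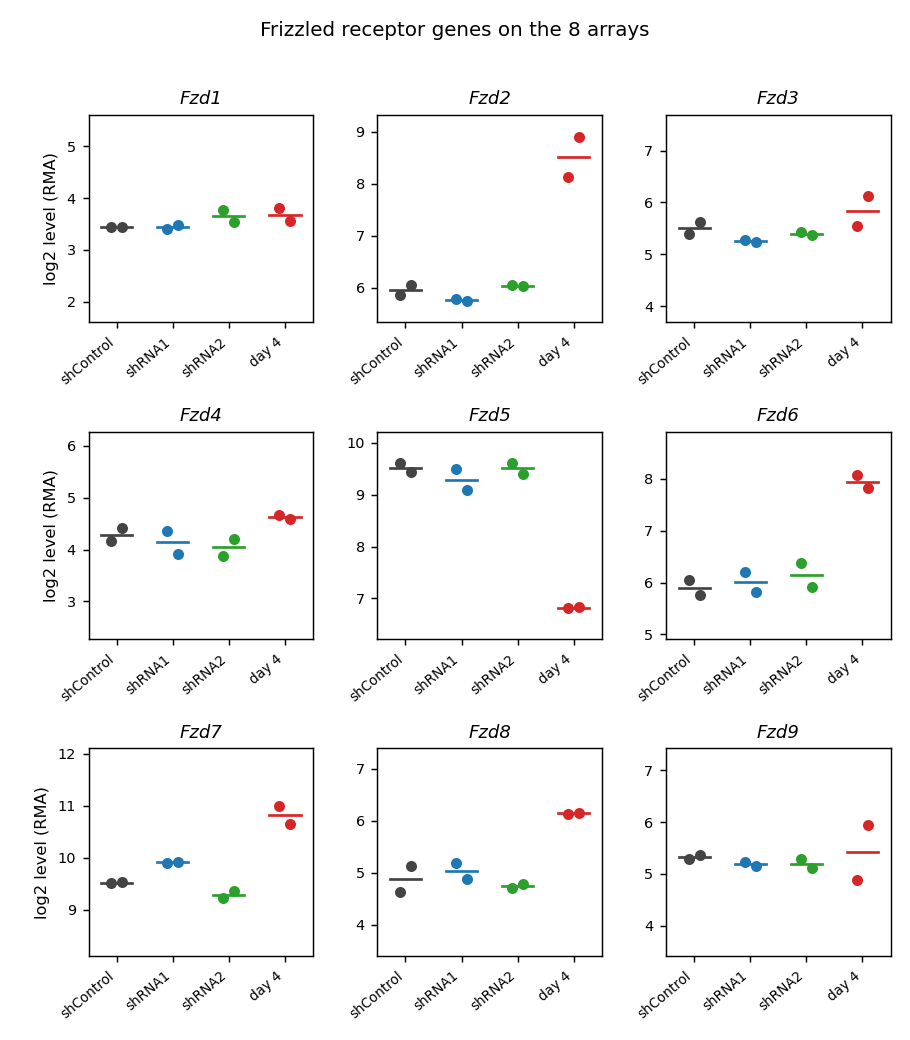
Log2 level of the 9 Frizzled genes on each of the 8 arrays (points) with the group mean (line); every panel spans 4 log2 units around its own centre, and levels are not comparable between panels. Fzd5 fell to 6.82 and 6.83 on day 4, Fzd2, Fzd6, Fzd7 and Fzd8 rose, and the other 4 genes were not called.

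The other 4 Frizzled genes, Fzd1, Fzd3, Fzd4 and Fzd9, had changes of 0.09 to 0.34 and were not called. Fzd9 was at 4.89 and 5.95 on day 4, below and above the undifferentiated range of 5.11 to 5.36. A further probe set of Fzd3 had 0.76 and was called when every probe set was tested (adjusted p = 0.0433). The co-receptor genes Lrp5 and Lrp6 had 0.15 and 0.18 and were not called. Averaged over their probe sets, Fzd6 had 1.18 and Fzd7 had 0.69, both still called.

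Secreted antagonists bind Wnt proteins (the Sfrp family) or Lrp5 and Lrp6 (Dkk1, Dkk2 and Dkk4), and of 8 measured 1 rose and 2 fell on day 4 (37.5% called, against 16.4% of all genes). Sfrp1 had levels of 8.58 and 8.31 in shControl, 7.91 to 8.13 on the hairpin arrays and 6.91 and 6.48 on day 4. Day 4 lay below all other arrays, with a change of -1.75 ± 0.18 (adjusted p = 0.000269). Its other 3 probe sets had -1.0, -1.71 and -2.38, and all 4 were called when every probe set was tested.

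Sfrp2 had levels of 5.21 and 5.70 in shControl, 4.84 to 5.03 on the hairpin arrays and 7.29 and 8.10 on day 4. It rose by 2.25 ± 0.26 (adjusted p = 0.000520), and day 4 was above every undifferentiated array. Dkk3, a divergent family member, had 5.32 and 5.39 in shControl and 4.42 and 4.68 on day 4. It fell by 0.80 ± 0.15 (adjusted p = 0.00702); its second probe set had -1.02 and was not called when every probe set was tested (adjusted p = 0.0568). Dkk1, Dkk2, Dkk4, Sfrp4 and Sfrp5 had changes of -0.24 to 0.27, and none was called. Dkk3 was not called without shControl replicate 2 (adjusted p = 0.0507).

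None of the 7 cytoplasmic genes was called on day 4 with limma, where 16.4% of all genes were called. The 3 Dishevelled genes, which carry the signal from Frizzled, had changes of -0.28 to 0.14. Ctnnb1, the beta-catenin gene, had levels of 12.74 and 12.75 in shControl and 12.70 and 12.78 on day 4, a difference below 0.01. Axin2, a feedback inhibitor and the most widely used readout of beta-catenin signalling, had 5.87 and 6.10 in shControl, 5.84 to 6.02 on the hairpin arrays, and 6.29 and 7.34 on day 4. Both day 4 arrays were above all others, but they differed by 1.04 and the change of 0.83 ± 0.29 was not called (adjusted p = 0.0844). Its second probe set, at a mean level of 4.30, had 0.04. Against the mean of the 3 undifferentiated groups Axin2 was called. Axin1 and Nkd1 had 0.17 and 0.40.

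Of the nuclear factors, Tcf7l2 had levels of 6.32 and 6.54 in shControl, 5.91 to 6.19 on the hairpin arrays, and 5.65 and 5.68 on day 4. It fell by 0.77 ± 0.14 (adjusted p = 0.00629), below all undifferentiated arrays. Its other 3 probe sets had -0.13, -0.23 and -0.65 and were not called. Averaged over its probe sets, the gene had -0.44 (adjusted p = 0.116). Tcf7l1, the main repressor of the family in stem cells, had 8.49 and 8.40 in shControl and 8.75 and 8.88 on day 4. Its change of 0.37 was not called (adjusted p = 0.128), whereas its second probe set had 0.80 and was called when every probe set was tested (adjusted p = 0.00694). Lef1, an activator that is itself a Wnt target, had 3.49 and 3.66 in shControl and 4.08 and 4.86 on day 4 (0.89 ± 0.27, adjusted p = 0.0533).

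The day 4 arrays differed from each other in these genes. Replicate 2 was higher by at least 0.5 in 9 of the 49 members (18.4%) and lower in 2 (4.08%), where over all genes these shares were 8.27% and 7.52%. The 9 genes were Wnt5b, Fzd9, Axin2, Wnt3, Sfrp2, Fzd2, Lef1, Wnt8a and Fzd3, and the lower ones Wnt4 and Wnt9b. Replicate 2 also had more of the streak gene Eomes (9.21 against 7.87) and less of the naive stem cell gene Esrrb (4.76 against 7.35). Without day 4 replicate 1, 17 members and 2033 genes were called, and without replicate 2, 13 members and 2628 genes. In both cases the remaining day 4 array was assumed to vary like the other groups. Axin2, Fzd3, Fzd9, Lef1, Wnt5b and Wnt8a were among the 17 and not among the 13, which restates their higher level on replicate 2.

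**Figure D3:**
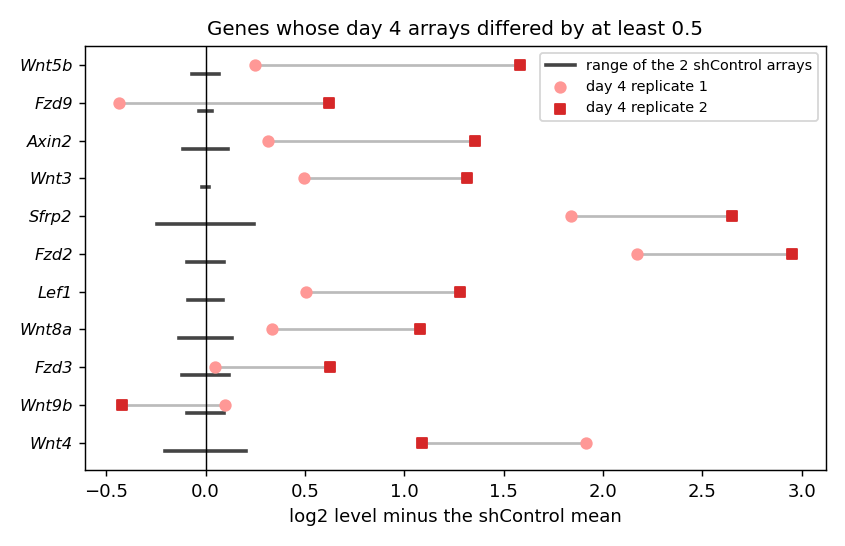
Log2 level of each day 4 array minus the shControl mean, for the 11 genes whose day 4 arrays differed by at least 0.5; the dark bar is the range of the 2 shControl arrays. Replicate 2 was the higher in 9 genes, with the largest difference, 1.34, for Wnt5b.

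Other genes of the pathway were followed in lists by role. Of 21 genes that process the ligands or act at the cell surface, 3 rose and 1 fell on day 4, which is 19% called and near the 16.4% of all genes. Wls, whose product carries Wnt proteins to the cell surface, had levels of 3.61 and 3.62 in shControl and 7.76 and 6.73 on day 4, a change of 3.63 ± 0.29 (adjusted p = 6.72e-05). Its shControl mean lay below 3.79, so the size is uncertain. Ptk7, a co-receptor of the planar polarity branch, rose by 1.18 ± 0.13, and Rspo1, a secreted enhancer of Wnt signalling, by 1.05 ± 0.24. Rspo1 was not called without shControl replicate 1 (adjusted p = 0.101) or replicate 2 (adjusted p = 0.0587) and had 0.70 without day 4 replicate 2. Notum, which removes the lipid from Wnt proteins, had 7.13 and 7.34 in shControl and 5.79 and 5.52 on day 4 and fell by 1.58 ± 0.18 (adjusted p = 0.000465).

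Of 19 genes of the destruction complex and its regulators, 1 fell (5.26%, against 16.4% of all genes), the phosphatase subunit gene Ppp2r5a, with -0.51 ± 0.14 (adjusted p = 0.0405). It was not called when either shControl array, day 4 replicate 2 or any hairpin array was left out (adjusted p = 0.0673 to 0.132). Of 18 nuclear cofactors 2 rose and 3 fell (27.8%, against 16.4% of all genes). Tle5, a short Groucho-family protein that lacks the repression domain of its relatives, fell by 2.09 ± 0.16 (adjusted p = 5.75e-05), Ldb1, an adaptor of the Wnt enhanceosome, by 1.27 ± 0.13, and the co-repressor gene Tle1 by 0.71 ± 0.17. Tle1 was not called without shControl replicate 2 (adjusted p = 0.113) or averaged over its probe sets, where it had -0.42 (adjusted p = 0.0635). The co-repressor genes Ctbp1 and Tbl1x rose by 0.64 ± 0.13 and 0.56 ± 0.15, but Tbl1x had 0.03 averaged over its probe sets and was not called when shControl replicate 1, day 4 replicate 1 or any hairpin array was left out. Of 15 genes of the non-canonical branch, 2 were called (13.3%, below the 16.4% of all genes). Vangl1, a planar polarity protein, fell by 0.90 ± 0.17, and Camk2d, a calcium-dependent kinase, rose by 1.56 ± 0.43 with levels of 5.55 and 3.86 on day 4. Vangl1 was not called without shControl replicate 2 (adjusted p = 0.0622). Camk2d was not called when any shControl or hairpin array was left out, and had 0.72 without day 4 replicate 1 and 2.40 without day 4 replicate 2.

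Of 30 known beta-catenin target genes, 11 rose and 2 fell on day 4, 43.3% of the list against 16.4% of all genes. Jun, a subunit of AP-1, rose by 3.42 ± 0.27, Eomes by 2.70 ± 0.43, the differentiation inhibitor gene Id2 by 2.496 ± 0.22 and the receptor gene Tnfrsf19 by 2.35 ± 0.30 (1.03 averaged over its probe sets). The largest adjusted p of these 4 was 0.00305, that of Eomes. The homeobox gene Gbx2 changed by -4.12 ± 0.16 (adjusted p = 3.50e-06) and the T-box gene Tbx3 by -2.46 ± 0.62 (adjusted p = 0.0269). Tbx3 was at 8.12 and 5.56 on day 4, was not called without shControl replicate 1 (adjusted p = 0.111) or 2 (0.167), and had -1.13 averaged over its probe sets, -1.18 without day 4 replicate 2 and -3.74 without replicate 1. Many of these genes answer to other signals as well.

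All 6 pluripotency genes that Tcf7l1 is known to repress fell on day 4, with changes of -1.70 for Nanog to -3.71 for Esrrb. Among all genes, 8.73% were called lower. Whether Tcf7l1 had a part in these falls was not tested. Nr5a2, a nuclear receptor, had -2.73 ± 0.37 (adjusted p = 0.00118), Nr0b1 -2.75 ± 0.52, Tfcp2l1 -3.43 ± 0.57 and Esrrb -3.71 ± 0.63. Day 4 replicate 2 was the lower for these 4 genes, and without it Esrrb had -2.42, Nr0b1 -1.70 and Tfcp2l1 -2.28. Esrrb, Tfcp2l1 and Nr0b1 were not called without shControl replicate 2 (adjusted p = 0.0635, 0.0587 and 0.0779), nor Nr0b1 without replicate 1 (adjusted p = 0.0614), and Tfcp2l1 had -1.16 averaged over its probe sets. Nanog and Esrrb are also among the 10 stem cell markers.

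With Fbxl19 knocked down, Porcn was the member that was called, and only with shRNA1. Porcn encodes the acyltransferase that attaches the lipid to Wnt proteins in the endoplasmic reticulum, and it lies on chromosome X. Its levels were 5.08 and 5.31 in shControl, 6.23 and 6.38 with shRNA1, 5.46 and 5.45 with shRNA2, and 5.16 and 4.86 on day 4. The shRNA1 arrays were the highest of the 8, and the shRNA2 arrays lay just above the controls. Porcn rose by 1.11 ± 0.16 with shRNA1 (2.16-fold, adjusted p = 0.0276). It was 1 of 30 genes called in this comparison, 0.242% of all (0.169% higher and 0.0726% lower), and 1 of 49 members. At an unadjusted p under 0.05 there were 4 members (8.16%), against 9.82% of all genes.

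The Porcn change with shRNA2 was 0.26 ± 0.16 (adjusted p = 0.989), and shRNA2 minus shRNA1 was -0.85 ± 0.16, which was not called (adjusted p = 0.171). The call with shRNA1 was lost without either shControl array (adjusted p = 0.146 and 0.201), either shRNA1 array (0.203 and 0.328) or either shRNA2 array (0.0763), while the change stayed between 0.999 and 1.23. The gene had 1 probe set.

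Among the undifferentiated groups Wnt6 followed the same order, with 5.33 and 5.08 in shControl, 6.12 and 6.10 with shRNA1, and 5.54 and 5.44 with shRNA2. Both hairpins' arrays lay above both controls. The change was 0.91 ± 0.16 with shRNA1 (adjusted p = 0.0676) and 0.28 ± 0.16 with shRNA2 (adjusted p = 0.989), neither of which passed, and the difference between the hairpins was -0.62 ± 0.16 (adjusted p = 0.418). With shRNA1 it was called when only these groups entered the fit (adjusted p = 0.0241) and without either day 4 array (adjusted p = 0.0201). Wls, the ligand carrier gene, had 4.55 and 4.41 with shRNA1 and 3.79 and 3.42 with shRNA2, against 3.61 and 3.62 in shControl; its shRNA1 change of 0.86 ± 0.29 was not called (adjusted p = 0.402).

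**Figure D4:**
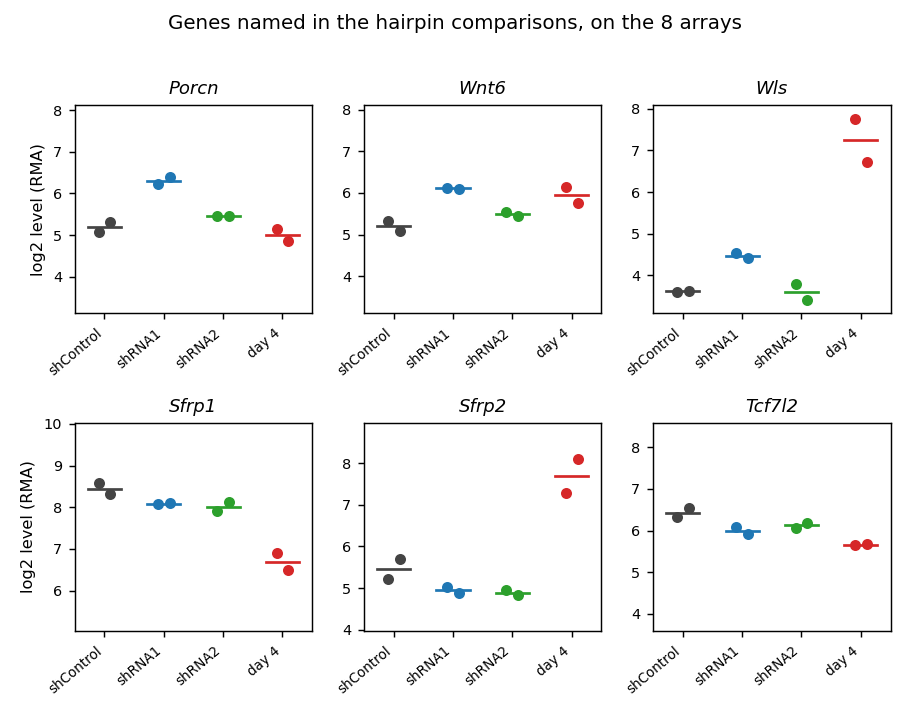
Log2 level of Porcn, Wnt6, Wls, Sfrp1, Sfrp2 and Tcf7l2 on each of the 8 arrays (points) with the group mean (line); every panel spans 5 log2 units around its own centre. Porcn is highest with shRNA1 at 6.23 and 6.38, and Sfrp2 is highest on day 4 at 7.29 and 8.10.

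With both hairpins averaged, limma called 0 of 49 members, where 0.0726% of all genes were called (0.0565% higher and 0.0161% lower), and 7 members had an unadjusted p under 0.05 (14.3%, against 8.42% of all genes). The members with the smallest p on the higher side were Porcn (0.69 ± 0.13, adjusted p = 0.152), Wnt6 (0.60 ± 0.14, adjusted p = 0.251) and Wnt5a (0.48 ± 0.17, adjusted p = 0.491). On the lower side they were Tcf7l2 (-0.36 ± 0.12, adjusted p = 0.464), Sfrp1 (-0.39 ± 0.15, adjusted p = 0.551) and Sfrp2 (-0.53 ± 0.22, adjusted p = 0.572). The median over members was 0.02, against -0.004 over all genes.

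With shRNA2 alone limma called 0 members and 0 genes of the 12393 (0%). At an unadjusted p under 0.05 there were 3 members (6.12%), close to the 5.1% of all genes. Wnt5a had levels of 4.51 and 4.21 with shRNA2, 4.48 and 3.996 with shRNA1 and 3.96 and 3.68 in shControl, and a change of 0.54 ± 0.20 with shRNA2 (adjusted p = 0.896). Wnt9a had 0.38 ± 0.16 and Wnt2 0.29 ± 0.16. Sfrp2 had -0.56 ± 0.26, Sfrp1 -0.43 ± 0.18 and Tcf7l2 -0.30 ± 0.14 (adjusted p = 0.969 to 0.970). With shRNA1 the same 3 genes had -0.50, -0.35 and -0.43. The other Tcf7l2 probe sets differed in sign, with 0.075, -0.165 and -0.097 with shRNA1 and 0.224, -0.297 and -0.234 with shRNA2. The hairpin comparisons share the shControl arrays, so their values are not independent of each other.

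Between the hairpins limma called 0 members, where 0.105% of all genes were called (0.0323% higher and 0.0726% lower), and 3 members (6.12%, close to the 5.15% of all genes) had an unadjusted p under 0.05. They were Porcn, Wnt6 and Fzd7, all lower with shRNA2. Fzd7 had 9.89 and 9.92 with shRNA1 and 9.21 and 9.36 with shRNA2, on either side of the controls at 9.51 and 9.53, a difference of -0.62 ± 0.15 (adjusted p = 0.336). On the higher side, Dkk3 had 0.29 ± 0.15, Fzd1 0.21 ± 0.15 and Fzd5 0.22 ± 0.17, with adjusted p of 1. With array weights, which gave the hairpin arrays 1.64 to 2.07 and the others at most 0.57, Porcn, Wnt6 and Fzd7 were called (adjusted p = 0.00697, 0.0264 and 0.0226). With these weights 176 of the 12393 genes were called between the hairpins, against 13 without them.

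Calls in the rest of the pathway were few under knockdown, as they were over all genes. In the 6 lists, limma called 0 genes with both hairpins averaged, with shRNA2 or between the hairpins. Over all genes, 0.0726%, 0% and 0.105% were called in these comparisons. With shRNA1 limma called Gbx2, 1 of the 30 beta-catenin target genes (3.33%, against 0.242% of all genes). Its levels were 7.81 and 7.47 with shRNA1, against 8.78 and 8.84 in shControl (-1.17 ± 0.16, adjusted p = 0.0276). The gene had 1 probe set, and this call with shRNA1 was not followed under the alternatives. With both hairpins averaged, Gbx2 had -0.81 ± 0.14 (adjusted p = 0.114) and the cyclin gene Ccnd2 -0.98 ± 0.14 (adjusted p = 0.0758). Among the same beta-catenin target genes, Jun had 0.495 ± 0.23 (adjusted p = 0.618) and Fosl1 0.30 ± 0.13 (adjusted p = 0.572). Of the 30 target genes measured, 15 lay above 0 and 15 below, with a median change of 0.01. At an unadjusted limma p under 0.05 there were 6 (20%), against 8.42% of all genes. Fosl1 was higher, while Ccnd2, Gbx2, Myc (-0.58 ± 0.15), Sp5 (-0.54 ± 0.23) and Id2 (-0.50 ± 0.19) were lower. The adjusted p was 0.310 for Myc, 0.572 for Sp5 and 0.541 for Id2. Notum had -0.54 ± 0.16 (adjusted p = 0.398), with levels of 6.56 and 6.14 with shRNA2 and 7.11 and 6.99 with shRNA1. The pluripotency genes repressed by Tcf7l1 had changes of -0.21 to 0.11 with both hairpins averaged. Axin2, a target readout, had 5.87 and 6.02 with shRNA1 and 6.00 and 5.84 with shRNA2, within or close to the 5.87 and 6.10 of shControl. The target gene Sp5 had 4.67 and 5.23 with shRNA1 and 5.47 and 5.65 with shRNA2, against 5.56 and 6.02 in shControl.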

How the data were processed

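Gene expression was measured in 8 samples, 1 array each, grouped and numbered by their titles. The description field names Fbxl19 to Fbxl22 in turn for the knockdown samples, whereas titles and source names give Fbxl19 for all and were followed. The authors deposited log2 values for each probe set, and RMA is the tool named in the submitters' processing notes. RMA corrects background, equalizes the distributions of arrays and summarizes probes. Its version, and whether it ran on all arrays at once, is not given in the sources used here. The table held 22690 probe sets, 64 of them controls; 20380 others had 1 gene symbol, updated by gene identifier to RefSeq GRCm38.p6 symbols for 20351. Precision is limited by the number of arrays.

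A mean per group was fitted to all 8 arrays with lmFit and eBayes of limma 3.58.1 under R 4.3.3, leaving 4 residual degrees of freedom, without a filter on low values, and 5 comparisons were tested. The fit was tested on simulated data. Members, lists and tests were chosen with earlier results of these data known. Named were all called members, the 3 higher and 3 lower members with the smallest p where a comparison called none, up to 4 called genes of each list in each direction on day 4, and list genes with the smallest p in a hairpin comparison. The levels of Wls, Axin2, Eomes, Esrrb and Sp5 lay outside this rule and were named after their values were seen. The same holds for the hairpin changes of Myc, Sp5 and Id2. Alternatives were every probe set, the mean of probe sets, the dimmest 30% left out, trend and robust settings, only the compared groups, array weights, repeated quantile normalization, centring, a minimum change of 1.5-fold, a replicate block, each array left out, and day 4 against all 3 undifferentiated groups.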

Additional observations from a re-analysis of the deposited data

How the results depend on the processing

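The count of 12 members called on day 4 was 10 to 16 under the alternatives that kept all arrays of the compared groups, except 6 with a minimum change of 1.5-fold (Fzd2, Fzd5, Fzd6, Fzd7, Sfrp1 and Sfrp2), and 8 to 17 when 1 array was left out. The 1 member called with shRNA1 became 0 with the minimum change of 1.5-fold, 2 (Porcn and Wnt6) when the fit held the compared groups alone, and 0 to 2 when 1 array was left out. The count between the hairpins was 3 with array weights and 0 otherwise. The counts for both hairpins averaged and for shRNA2 stayed at 0 under all alternatives. With the replicate number as a block, 13 members were called on day 4 (Lef1 in addition), 2 with shRNA1 (Porcn and Wnt6) and 0 in the other comparisons. Same-numbered arrays deviated together in the undifferentiated groups (r of 0.23 to 0.50) and less so between these and day 4 (-0.08 to 0.07). With 2 numbers and no shared source in the labels, whether the numbers pair the samples was not settled. Of 1016 values of 55 named gene results under alternatives, 929 kept direction and side of the threshold, 80 lost a call, 7 gained one and 0 reversed; 15 of the losses came with the minimum change of 1.5-fold. The cause was not tested. Over all genes, the 2033 calls on day 4 became 519 with the minimum change, 1145 with the compared groups alone, 1191 with array weights and 1102 without shControl replicate 2, and rose to 2309 with the block, 2628 without day 4 replicate 2, 2825 against the 3 undifferentiated groups and 3014 probe sets when each was tested. The 30 calls with shRNA1 became 2 to 113, the 9 of both hairpins 0 to 54, the 0 of shRNA2 0 to 40 and the 13 between hairpins 2 to 176. Leaving out the dimmest 30% of genes removed 20 members, among them Wnt3, Wnt5a, Wnt5b, Wnt8a and Lef1. Low signal without a background measure limits the size of changes for such genes.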

Other observations

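The 3 probe sets of Ctnnb1 differed in their changes under knockdown. The brightest, with a mean level of 12.71, had -0.05 with shRNA1, the second, at 10.11, had -0.31, and the dimmest, at 7.51, had -0.64. On day 4 they had a change below 0.01 in size, -0.20 and -0.58. None of these values was called when every probe set was tested (adjusted p = 0.341 for the dimmest with shRNA1 and 0.0864 on day 4). Probe sets of Axin1, Dvl1, Lrp6, Wnt5a and Wnt7b differed in sign on day 4, none of them called.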
